A study of Rattus norvegicus with 4 samples.

Results

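m6A-seq sets RNA fragments captured by an N6-methyladenosine antibody (IP) against the total RNA before capture (input). A peak is a part of a transcript in which captured fragments are in excess. Cardiac fibroblasts (CFs) were primary cells from the hearts of healthy Sprague-Dawley rats in their first 3 days of life. Transfection was with an empty plasmid (Vector group, genotype WT in the labels) or with one encoding rat FTO (FTO group, labelled FTO overexpression). Each group had 1 m6A-IP and 1 input library, and the deposited peak lists, 1 for Vector and 1 for FTO, hold a length in bp and a transcript for each peak, and mostly a gene ID. The genes described here had at least 1 listed peak in each group and no peak length common to the groups, which means that every listed peak of the gene had a length that the other group did not list for that gene. They are called reshaped genes below, and where lengths are joined by "and" with no group named, the Vector length stands first and the FTO length second, while "and then" leads from the Vector peaks to the FTO peaks. There were 1158 of them among 6334 genes with peaks in both lists (18.3%, 95% Wilson interval 17.3% to 19.3%, counting error over genes only) and among 8534 genes with a gene ID in either list. The genes were chosen by their peak lengths in these same lists, so their differences between the groups are a description and no test was made. With 1 library pair per group, no difference has a replicate check, and the sequencing depth behind the lists is unknown. The lists give no positions, so peaks were compared by length, and peaks set against each other need not cover the same site. Longer, shorter and changed refer to listed lengths only.

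N6-methyladenosine is placed on messenger RNA in the nucleus by a complex around the METTL3 and METTL14 proteins and is found mostly near stop codons and in long internal exons. FTO removes the methyl group. Reader proteins bind the mark and change how long the transcript lasts, where it goes or how well it is translated. CFs make the collagen matrix of the heart and its scars. A peak has no single-base resolution, and the length of a peak is not the amount of methylation in it. How the ends of the listed peaks were set is not known here.

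The transfected gene itself had lengths in common and was not reshaped. Fto had 3 Vector peaks and 9 FTO peaks, and 2 of the lengths were common to the lists. Reads from the plasmid and from the endogenous transcript were not told apart. Of 12 fibroblast markers, Pdgfra, Lum, Tcf21 and Thy1 had peaks in both groups, while Col1a1, Col1a2, Col3a1, Dcn, Vim and S100a4 had 0 peaks in each. Markers of other cell types also had peaks, among them Myh6 of cardiomyocytes with 7 in each group, Myh11 of smooth muscle with 17 and 15, and Ptprc of leukocytes with 10 and 7. Peaks were listed with Vector for 5 of 12 fibroblast, 5 of 8 cardiomyocyte, 0 of 5 endothelial, 3 of 6 smooth muscle and pericyte and 5 of 6 macrophage markers, and with FTO for 5, 5, 1, 3 and 3. The part of other cell types in the results was not tested. In these bulk libraries, fewer cells of a type and less RNA per cell cannot be told apart, and transcript levels were not measured here. Symbols came from RefSeq for 1115 of the 1158 reshaped genes, and the other 43 go unnamed.

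Most reshaped genes had 1 peak in each list, 59.8% of them against 28.2% of all genes with peaks in both lists. They carried 1650 of the 21249 Vector peaks and 1435 of the 17796 FTO peaks, and 812 of them had 1 Vector peak, as had 2196 of the 6334 genes with peaks in both lists. Their peaks had a median length of 593 bp with Vector and 793 bp with FTO, against 193 bp and 209 bp in the 5176 genes with at least 1 common length. Their longest peak had a median of 970.5 bp with Vector and 1034 bp with FTO, with quartiles of 414.25 and 1657.5 bp for Vector and of 442.25 and 1727 bp for FTO. In the genes with a common length the median of the longest peak was 715.5 bp with Vector and 698 bp with FTO, so that the gap per gene was smaller than the gap per peak. The sum of all their peak lengths was nearly equal in the groups, at 1505828 bp with Vector and 1505523 bp with FTO. The largest Vector total, 19047 bp, was in an unnamed gene that had 5761 bp listed under different transcripts. Its FTO peaks had 2784 and 3046 bp, so this gene alone differed by more than the sums did. Over the genes with a common length the sum was 7944564 bp with Vector and 7577549 bp with FTO.

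A gene with more peaks has more lengths that could be shared, and the share of reshaped genes was lower the more Vector peaks a gene had, up to 6. It was 37.0% of the 2196 genes with 1 Vector peak, 17.1% of the 1473 genes with 2 and 7.04% of the 881 genes with 3. Of the 193 genes with 10 or more Vector peaks, 0 were reshaped. Where a gene had 1 peak in each list, its length differed in 693 of 1787 genes (38.8%), and the share was higher for long peaks. The share was 29.1% where the geometric mean of the lengths was under 200 bp, 27.3% from 200 bp, 38.8% from 500 bp, 48.6% from 1000 bp and 48.3% from 2000 bp. The difference was at the same time smaller in proportion, with a median of 32.4% of the longer peak in the shortest class and 4.45% in the longest.

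**Figure D1:**
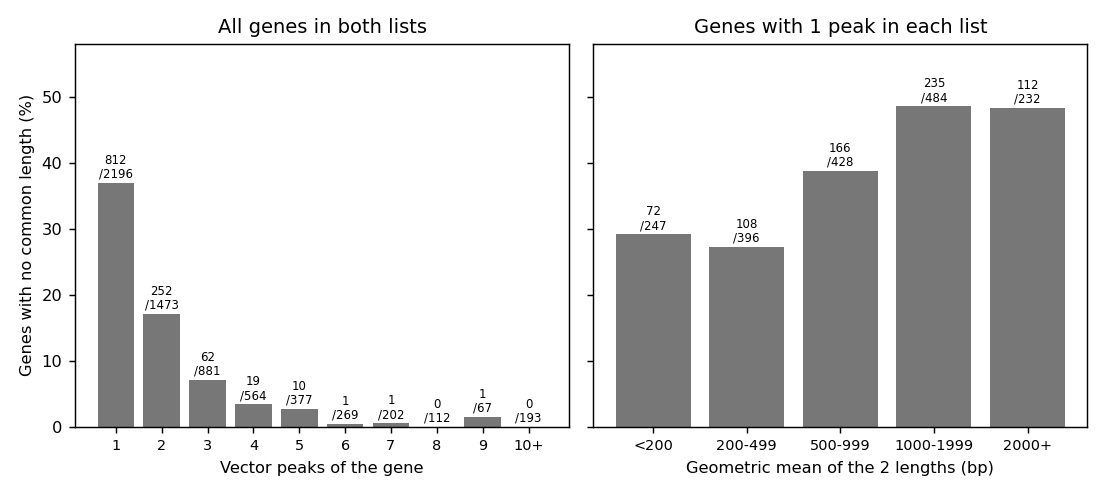
Share of genes with no common peak length (vertical axis, percent) by the number of Vector peaks for all genes with peaks in both lists (left) and by the geometric mean of the lengths for genes with 1 peak in each list (right). Numbers over the bars are reshaped genes over all genes of the class, and the bars fall from 37.0% at 1 Vector peak to 0 of 193 genes at 10 or more, while on the right they are highest from 1000 bp.

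The rule asks only that lengths are unequal, so many reshaped genes had a pair of near-equal lengths. The nearest pair of lengths, 1 from each list, lay at most 10 bp apart in 155 reshaped genes and at most 1 bp apart in 18. They were at most 10% apart in 565 genes, which is 48.8%, with a median of 84.5 bp over all 1158. In a gene with several peaks, a near pair leaves the other peaks out and need not mean a small change. The total length stayed within 1.1-fold in 311 of the 693 genes with 1 peak in each list. It did so in 15 of 119 genes with 1 Vector peak and several FTO peaks. With several Vector peaks it did so in 36 of 261 genes with 1 FTO peak and 28 of 85 with several. Just inside the rule were Gprasp1, which codes for a protein that sorts receptors to lysosomes, with 5307 bp with Vector and 5306 bp with FTO, and RGD1309362 with 2652 and 2651 bp. Samd9, an antiviral and growth-restraining gene, had 5177 and 5175 bp. Gli2, a transcription factor of the hedgehog pathway, had Vector peaks of 3845 and 282 bp and an FTO peak of 3846 bp. Just outside were genes with many peaks and 1 common length. Irag1, a regulator of calcium release, had 11 Vector peaks and 1 FTO peak and shared 612 bp. Fgfr1, a receptor for fibroblast growth factors, had 4 and 7 peaks and shared 604 bp. Aldh7a1, an aldehyde dehydrogenase, had 5 and 5 peaks and shared 66 bp, and 6430548M08Rikl had 9 and 2 and shared 196 bp.

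The simplest change was that of the 693 genes with 1 peak in each list. The peak was longer with FTO in 393 of them, by a median of 112 bp, and shorter in 300, with a median difference of 15 bp over all of them. The median length was 991 bp with Vector and 1059 bp with FTO. Lengths more than 10% apart were found in 368 of these genes, of which 219 had the longer peak with FTO and 149 the shorter. A change of at least 2-fold was seen in 55 genes towards the longer and in 44 towards the shorter. All FTO peaks had a higher median length than all Vector peaks, 228 bp against 203 bp, a shift of 0.17 on the log2 scale. When lengths were divided by the median of their list the direction turned, with 212 genes longer and 481 shorter. This scaling counts a peak of equal length in both lists as shorter with FTO. In bp, the median log2 ratio of the longest peak was 0 over all genes with peaks in both lists, and so were both quartiles. Most of these genes had longest peaks of equal length, which fixes this median, so it cannot show which scale is apt. Longer peaks outnumbered shorter ones in bp only, and neither direction is read as a result about these genes.

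**Figure D2:**
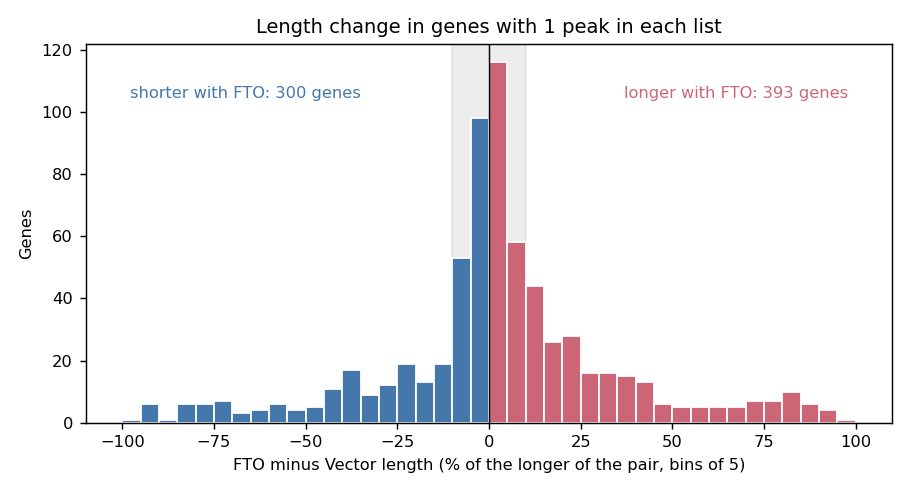
Genes (vertical axis) by FTO minus Vector length in percent of the longer of the pair (horizontal axis, bins of 5) for the 693 genes with 1 peak in each list. The grey band marks lengths at most 10% apart, which holds 325 genes, and 393 genes stand right of 0 against 300 left of it, with lengths in bp as listed and not scaled to the lists.

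Fam83h, which codes for an organizer of keratin filaments, was among the genes whose single FTO peak exceeded the single Vector peak by most. It had 645 bp with Vector and 3693 bp with FTO. Bdkrb2, the bradykinin receptor B2, had a peak of 848 bp with Vector and of 3712 bp with FTO. Wdfy2, a protein of early endosomes, had 363 and 2833 bp. Kcna3, a voltage-gated potassium channel, had 900 and 3200 bp, and Urb2, a ribosome biogenesis factor, had 1040 and 3331 bp. In each of these 5 genes the FTO peak was over 3-fold as long as the Vector peak, with the largest log2 ratio, 2.96, in Wdfy2.

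The largest fall in bp from the single Vector peak to the single FTO peak was in Tead4, a transcription factor through which the Hippo pathway acts. It had 3950 bp with Vector and 1201 bp with FTO, and whether these cover the same site is unknown. The zinc finger gene Zfp512b had 2994 and 587 bp, and the tetraspanin Tspan9 had 3191 and 861 bp. Sowahc, an ankyrin repeat gene, had 4453 and 2529 bp. For Siah1, a ubiquitin ligase, a peak of 1906 bp with Vector stood against 178 bp with FTO. The ratios covered a wide range here, from a log2 value of -0.82 in Sowahc to -3.42 in Siah1.

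Over all reshaped genes the longest peak was longer with FTO in 649 and shorter in 509 (56.0% and 44.0%). Among all genes with peaks in both lists, which include the reshaped ones, it was longer in 20.3% and shorter in 19.3%. In the genes with a common length the larger side was the other one, with 634 longer and 716 shorter. The middle 50% of the log2 ratios of the longest peak ran from -0.15 to 0.27 with a median of 0.02. After division by the list medians 360 genes had the longer and 798 the shorter peak with FTO. At least 2-fold changes of the longest peak were more evenly divided, with 109 genes longer (9.41%) and 98 shorter (8.46%), against 4.48% and 5.83% over all genes with peaks in both lists. With the scaled lengths these counts were 94 and 118, so here too the larger side turned. The total length per gene was at least 2-fold longer with FTO in 118 reshaped genes and at least 2-fold shorter in 131 (5.46% and 8.84% over all genes). The larger side of these counts turned with lengths within 10 bp counted as shared, to 110 and 105, within 10%, to 102 and 97, with peaks from 200 bp up, to 75 and 72, and at 4-fold, to 55 and 53, and with transcripts as units both were 132. The rule used these same lengths, so nothing is read from the differences in share.

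**Figure D3:**
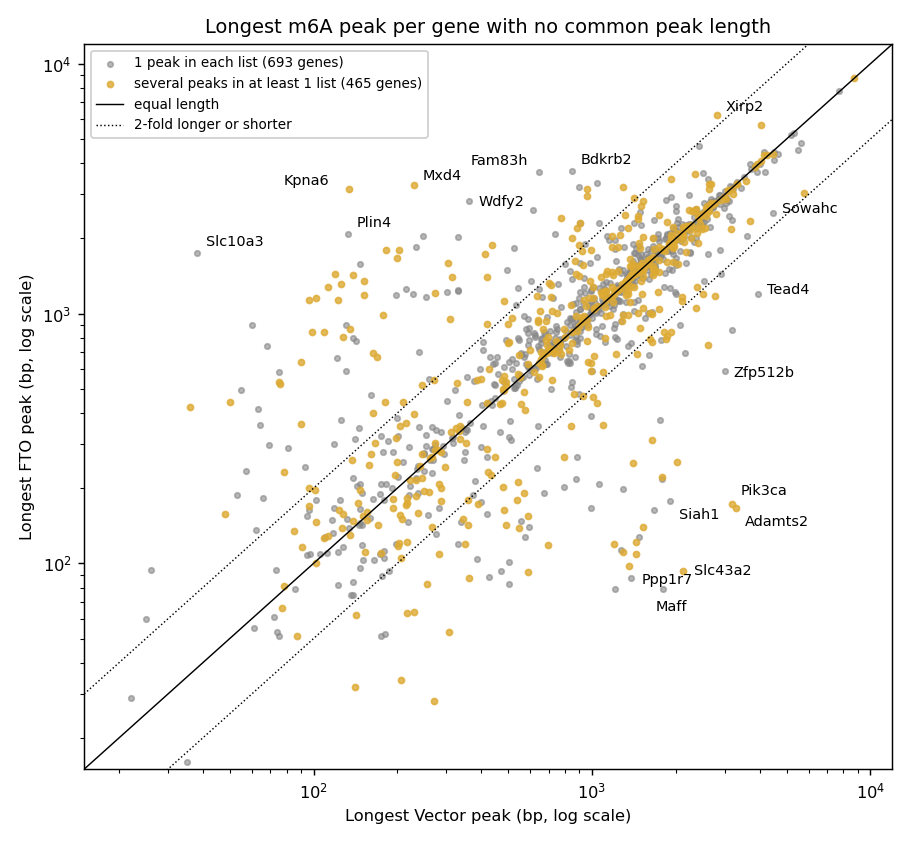
Longest Vector peak (horizontal axis, bp, log scale) and longest FTO peak (vertical axis, bp, log scale) of the 1158 reshaped genes, with genes with 1 peak in each list in grey (693) and the others in yellow. Most points lie along the line of equal length, 109 lie on or above the upper dotted line (2-fold longer with FTO) and 98 on or below the lower one, and the named genes are among those with the largest changes in bp or ratio.

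With a limit of 300 bp, chosen after the data were seen, the longest peak was over the limit in both lists for 853 reshaped genes and under it in both for 162. The former were 73.7% of the reshaped genes and 73.5% of the genes with a common length, about the same share. It was under the limit with Vector and over it with FTO for 75 genes, where its median was 152 bp and then 663 bp. For 68 genes it was over the limit with Vector and under it with FTO, with medians of 572 and 163 bp. The switches made up 6.48% and 5.87% of the reshaped genes, and 2.24% and 3.84% of genes with a common length, a difference that the rule itself favours.

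Next come genes with a large gain in bp of the longest peak (Mxd4 and Kpna6) or in the ratio of total length (Kpna6 and the others). Mxd4, which codes for a partner of MAX that opposes MYC, had Vector peaks of 229 and 30 bp and FTO peaks of 252 and 3261 bp. Kpna6, an importin that carries proteins into the nucleus, had a Vector peak of 134 bp and FTO peaks of 3156 and 82 bp, and the lists gave it different transcripts. Slc10a3, of the bile acid transporter family, had the largest ratio of total length, from 38 bp with Vector to 1748 bp with FTO (log2 5.52). Fxr1, an RNA-binding relative of the fragile X protein, had a Vector peak of 36 bp and FTO peaks of 422, 411 and 94 bp. Gpr137b, a lysosomal membrane protein, had 50 bp with Vector and 442, 223 and 150 bp with FTO. Medag, which promotes fat cell formation, had 113 bp and then 1274, 110 and 438 bp. Plin4, a coat protein of lipid droplets, had 133 bp with Vector and 2084 bp with FTO. The ratios of Slc10a3, Fxr1 and Gpr137b are taken against Vector peaks of at most 50 bp.

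Xirp2 had the largest gain of the longest peak in bp. This actin-binding gene of striated muscle had Vector peaks of 1751, 2801 and 1766 bp and FTO peaks of 2963, 6264 and 1814 bp, so that the total went from 6318 to 11041 bp.

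In the opposite direction stood Slc43a2, an amino acid transporter, with Vector peaks of 201, 208 and 2119 bp and an FTO peak of 93 bp, the lowest ratio of total length (log2 -4.76). Adamts2, the enzyme that cuts the amino-terminal propeptide off fibrillar procollagens, had Vector peaks of 211, 395, 124 and 3298 bp and an FTO peak of 167 bp, a total 24.1-fold shorter. A peak of 124 bp was listed in the FTO group at the same place in the order of the peaks under another gene, Rufy1. Were it the same peak and counted for Adamts2, the gene would have a common length and would not be reshaped, and the fold would be smaller. The peak of 3298 bp had no such counterpart. Pik3ca, the catalytic subunit of a phosphoinositide kinase, had peaks of 79, 171 and 3179 bp with Vector and of 172 bp with FTO, and its 171 bp and 172 bp peaks differed by 1 bp. No FTO peak of Pik3ca came near its Vector peaks of 79 and 3179 bp in length. Fastkd1, a mitochondrial RNA-binding gene, had 487 and 1288 bp with Vector and 111 bp with FTO. Ppp1r7, a regulatory subunit of a protein phosphatase, had 1378 and 87 bp. Maff, a small MAF transcription factor, had 1795 and 79 bp.

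The number of peaks was the same in both lists for 749 reshaped genes, lower with FTO for 277 and higher for 132, or 64.7%, 23.9% and 11.4%, against 49.9%, 34.2% and 15.9% over all genes with peaks in both lists. Of the 749, 693 had 1 peak in each list, so that their number could not differ. Genes of this kind made up 59.8% of the reshaped genes and 28.2% of all genes with peaks in both lists. The higher share with an equal number is therefore not read as a result about reshaped genes. The FTO list was the shorter list as a whole.

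From 1 Vector peak to several FTO peaks went 119 reshaped genes, with 288 FTO peaks in all, of 409 genes of this kind (29.1%). Their total length was longer with FTO in 107 and shorter in 12, and the median total went from 900 to 1658 bp. The median log2 ratio of total length was 0.71, and 0.82 in the 290 genes of this kind with a common length. In the latter the total is always longer with FTO, because the only Vector length recurs beside further peaks. The longest FTO peak stayed within 1.1-fold of the Vector peak in 39, was longer than that in 63 and shorter in 17. In most of them the further peaks stood beside a peak about as long as the Vector peak or longer.

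Ppl, which codes for periplakin, a linker of intermediate filaments to the cell membrane, had 1 Vector peak of 2335 bp and 12 FTO peaks. Of these, 11 measured between 84 and 194 bp and 1 measured 3603 bp. Tnip3, an inhibitor of NF-kB signalling, had 1241 bp with Vector and 78, 66, 99, 129, 117 and 1840 bp with FTO. Lrp4, a receptor of the LDL receptor family, had 1468 bp with Vector and 126, 135, 145, 88 and 2386 bp with FTO. In Ppl, Tnip3 and Lrp4 the pattern was the same, a longer long peak and a series of short ones. Lbp, the lipopolysaccharide-binding protein, had a Vector peak of 177 bp and FTO peaks of 162, 115, 129, 168 and 989 bp, and the 168 bp peak had a counterpart of equal length in the Vector list under Fam83d. Mllt6, a chromatin reader gene, started from 2 Vector peaks, of 207 and 1503 bp, and had 612, 182, 198, 350, 357 and 1353 bp with FTO.

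From several Vector peaks to 1 FTO peak went 261 reshaped genes, with 638 Vector peaks in all, of 836 genes of this kind (31.2%). The total length was shorter with FTO in 220 and longer in 41, and its median went from 1209 to 774 bp. The median log2 ratio of total length was -0.46, and -0.79 in the 575 genes of this kind with a common length. In the latter the total is always shorter with FTO, because the only FTO length is 1 of the Vector lengths. The FTO peak lay within 1.1-fold of the longest Vector peak in 93 genes, was shorter than that in 105 and longer in 63. In 41 genes it was at least as long as all Vector peaks of the gene together.

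Col4a4, the alpha 4 chain of type IV collagen in basement membranes, had the largest drop in listed peaks, with 9 Vector peaks of 64, 182, 105, 171, 107, 73, 164, 69 and 135 bp and 1 FTO peak of 1797 bp, which was longer than the 9 together at 1070 bp. The lists gave different transcripts for these peaks. Cyth4, an exchange factor for ARF proteins, had Vector peaks of 108, 65, 67, 149, 112, 155 and 1521 bp and an FTO peak of 1490 bp. Both groups thus listed a long peak of about the same length, and no short one was listed for Cyth4 with FTO. The 112 bp peak of Cyth4 had a counterpart of equal length under Sh3bp1 in the FTO list. Mtss1, which binds actin and bends membranes, had 211, 158, 92, 85, 62 and 635 bp with Vector and 1171 bp with FTO, close to the Vector total of 1243 bp. Emilin2, a glycoprotein of elastic fibres, had 338, 369, 1917, 176 and 143 bp with Vector and 840 bp with FTO. Wdr47, a gene of neuronal microtubules, had 803, 179, 258, 219 and 864 bp and then 477 bp. Itga6, the laminin-binding integrin alpha 6, had 375, 80, 256, 190 and 2399 bp and then 1923 bp. Emilin2, Wdr47 and Itga6 thus had a shorter longest peak and a shorter total with FTO, while Col4a4 and Mtss1 had a longer longest peak. Mcm5, Anln, Ablim1 and Ppp4r3a also went from 5 peaks to 1, and Emilin2, Wdr47 and Itga6 stand here for their larger differences in total length.

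**Figure D4:**
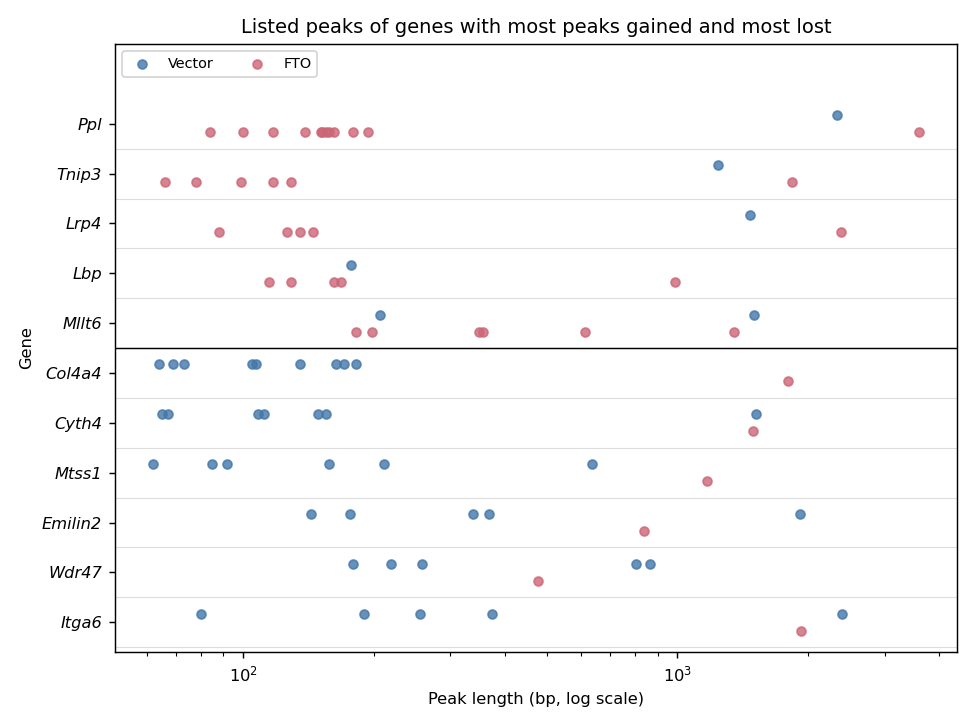
Length of every listed peak (horizontal axis, bp, log scale; 1 point per peak, Vector in blue and FTO in red) of 5 of the reshaped genes with the largest gain of peaks (above the line) and of 6 with the largest loss, ties taken by the difference in total length. In Ppl, Tnip3 and Lrp4 a longer red point stands beside several short ones, and in Col4a4 the 9 blue points lie between 64 and 182 bp and the red one at 1797 bp.

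The other 85 reshaped genes had several peaks in each list, 200 with Vector and 193 with FTO. Of 3302 genes with several peaks in each list they were 2.57%. Total length was longer with FTO in 55 of them and shorter in 30.

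Of 721 genes in 14 pathway lists, 434 had peaks in both groups and 60 of these were reshaped (13.8%, against 18.3% over all genes with peaks in both lists). The lists' genes had a median of 3 Vector peaks, against 2 over all genes. The longest peak was longer with FTO in 28 of the 60 and shorter in 32, and the median log2 ratio of the total was -0.02, where it was 0.01 over the reshaped genes and 0.00 over all genes with peaks in both lists.

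**Figure D5:**
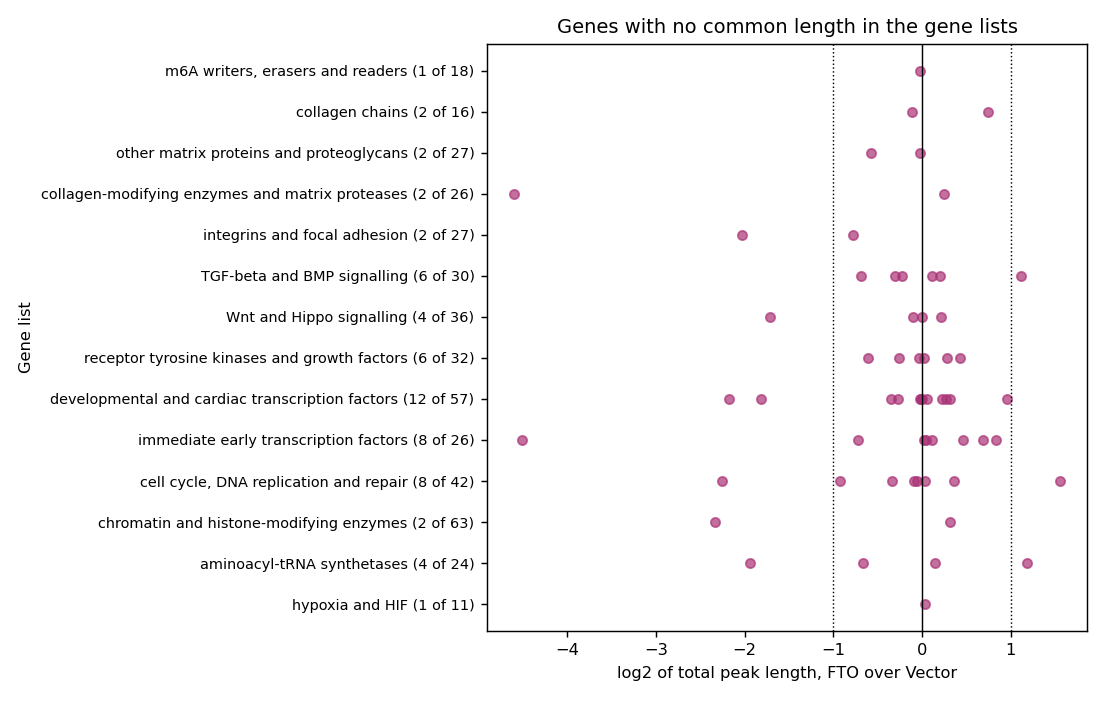
log2 ratio of total peak length per gene, FTO over Vector (horizontal axis), for the reshaped genes of each gene list (vertical axis, with the number of reshaped genes and of genes with peaks in both groups). Each point is 1 gene, dotted lines mark 2-fold changes, and most of the 60 genes lie between them, with Adamts2 and Maff at the far left.

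Matrix and adhesion genes made up 4 lists, with 12.5%, 7.41%, 7.69% and 7.41% reshaped in the order below. Over all genes with peaks in both lists the share was 18.3%. Their median genes had 7, 3, 2.5 and 3 Vector peaks, against 2 over all genes, and reshaped genes were rarer among genes with more peaks. The lower shares are therefore not read as a result about the lists. Of 16 collagen chain genes with peaks in both groups, 2 were, namely Col4a4 and Col12a1, a chain that sits on the surface of collagen fibrils, with 295 bp with Vector and 273 bp with FTO. Of 27 other matrix proteins and proteoglycans, 2 were. Sparc, a collagen-binding protein, had 122 bp with Vector and 82 bp with FTO, and Fbln5, an organizer of elastic fibres, had 959 and 941 bp. Among 26 enzymes that modify collagen or cut the matrix, Adamts2 and P4ha1 were reshaped, the latter a subunit of prolyl 4-hydroxylase with 175 and 208 bp. Of 27 integrin and focal adhesion genes, Itga6 and Itga8 were, and the integrin alpha 8 gene had Vector peaks of 2607, 101 and 354 bp and an FTO peak of 748 bp. Of these 8 matrix and adhesion genes, the changes of Adamts2, Itga6, Itga8, Col4a4, P4ha1 and Sparc exceeded 10% of the longer total, and those of Col12a1 and Fbln5 did not.

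Growth factor pathways had 16 entries over 3 lists. The shares were 20.0% for TGF-beta and BMP, 11.1% for Wnt and Hippo and 18.8% for receptor tyrosine kinases and growth factors. Over all genes with peaks in both lists the share was 18.3%. Of 30 genes of TGF-beta and BMP signalling, 6 were reshaped (20.0%), with the longest peak longer in 2 and shorter in 4. Bmp2, a secreted ligand that drives bone and heart development, had a Vector peak of 1315 bp and FTO peaks of 371 and 2473 bp, the only at least 2-fold change of total length in the list. The related ligand Gdf6 had 2905 bp and then 515 and 2839 bp. The receptor Acvr1b had 3083 bp with Vector and 121, 125 and 3094 bp with FTO, and the receptor Acvr1 had 1175 and 272 bp and then 1171 bp. Id4, an inhibitor of basic helix-loop-helix factors, had 722 and 441 bp with Vector and 721 bp with FTO, while Tgif2, a corepressor of SMAD proteins, had 2354 and 2012 bp. In Acvr1b, Acvr1 and Id4 the long peaks of both lists differed in length by 1 to 11 bp, and the other peaks made most of the difference in total length.

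Of 36 genes of Wnt and Hippo signalling, 4 were reshaped, each with 1 peak in each list. Besides Tead4, these were the ligand Wnt4 with 3064 bp with Vector and 2857 bp with FTO, the receptor Fzd3 with 449 and 519 bp, and the receptor tyrosine kinase Ror1 with 2698 and 2708 bp. Of 32 receptor tyrosine kinase and growth factor genes, 6 were reshaped, with the longest peak longer in 3 and shorter in 3. Fgf2, a mitogen of fibroblasts, had 558 and 104 bp and then 433 bp, and Efna1, a ligand of ephrin receptors, had 617 and 833 bp. The receptor Tyro3 had 119 and 1413 bp with Vector and 1278 bp with FTO. Bdnf, with 953 and 967 bp, and Vegfb, with 619 and 603 bp, changed by under 20 bp.

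Immediate early genes, which respond at once to growth signals, had the highest share of the 14 pathway lists, 8 of 26 genes (30.8%), and their median gene had 1 Vector peak. Of the 18 genes of this list with 1 peak in each group, 6 were reshaped, against 38.8% over all such genes. The longest peak was longer with FTO in 6 of the 8. Dusp6, a phosphatase that switches off ERK, had 833 bp with Vector and 1483 bp with FTO, and its relative Dusp5 had 1237 bp and then 220 and 1485 bp. Fosl1, a partner of JUN in the AP-1 factor, had 652 and 313 bp with Vector and 329, 198 and 1028 bp with FTO. Jun had 3005 and 3089 bp, Egr2 had 2071 and 2108 bp and the stress-induced factor Atf3 had 1384 and 1493 bp. The shorter ones with FTO were Maff and the orphan receptor Nr4a2, with 838 and 508 bp. With the lists' medians as scale, a peak had to be longer by 0.17 on the log2 scale to count as longer, which Dusp6, Dusp5 and Fosl1 met and Jun, Egr2 and Atf3 did not.

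Of 57 developmental and cardiac transcription factors, 12 were reshaped (21.1%, against 18.3% over all genes with peaks in both lists). The longest peak was longer with FTO in 6 and shorter in 6. Tbx5, a factor of heart development, had 1182 and 393 bp with Vector and 1844 bp with FTO. Six4, a homeobox factor of muscle precursors, had 1376 bp and then 1421, 689 and 554 bp, and Meox1, a homeobox factor of activated fibroblasts, had 1092 and 386 bp and then 1205, 176 and 463 bp. Sox9, a factor of cartilage and scar formation, had 2383 bp with Vector and 783 and 2102 bp with FTO. Runx1 had 674 and 192 bp and Klf6 had 574 and 127 bp, the 2 genes of the list with an at least 2-fold shorter peak. Sox11 had 2010 and 1669 bp, and Sox13 had 343, 199 and 1945 bp and then 1956 bp. Foxc1 with 2877 and 2983 bp, Foxc2 with 2703 and 2683 bp, Hes1 with 954 and 937 bp and Klf10 with 1639 and 1641 bp changed by less than 5%.

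Of 42 cell cycle, replication and repair genes with peaks in both groups, 8 were reshaped (19.0%, near the 18.3% over all such genes). None had more FTO peaks and 4 had fewer, where 11.4% and 23.9% of all reshaped genes did. No direction is read from 8 genes. Cdc25a, a phosphatase that starts DNA synthesis, had 413 and 174 bp with Vector and 1727 bp with FTO. The helicase subunit Mcm5 had 286, 156, 128, 143 and 128 bp with Vector and 177 bp with FTO. Ccne1, cyclin E1, had 645, 149, 88 and 173 bp and then 555 bp, and Cdkn1c, an inhibitor of cyclin-dependent kinases, had 519 and 1215 bp and then 687 and 690 bp. The replication genes Gins2, with 728 and 744 bp, and Gins3, with 1757 and 1686 bp, moved little. Brca1, a repair gene, had 172 and 3318 bp with Vector and 3286 bp with FTO, and Ccnd2, cyclin D2, had 149 and 192 bp. Only Cdc25a and Mcm5 had a total length changed at least 2-fold, in opposite directions.

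Other lists held few reshaped genes. The shares were 3.17% for chromatin enzymes, 5.56% for m6A genes, 16.7% for synthetases and 9.09% for hypoxia genes. Over all genes with peaks in both lists the share was 18.3%. Of 63 chromatin enzymes, whose median gene had 6 Vector peaks, 2 were reshaped. They were Tet1, an enzyme that oxidizes methylated DNA, with 1854, 1268, 247 and 730 bp with Vector and 816 bp with FTO, and the acetyltransferase Kat2a, with 657 and 209 bp and then 700 and 378 bp. Of 18 genes that write, erase or read m6A, 1 was reshaped, Cbll1 of the writer complex, with 1578 and 1550 bp. Of 24 aminoacyl-tRNA synthetases, 4 were, and all of them except Wars1 act in mitochondria. Iars2 had 145, 123 and 267 bp with Vector and 140 bp with FTO, Vars2 had 109 bp and then 122 and 126 bp, Pars2 had 2368 and 2612 bp, and Wars1 had 173 and 109 bp under different transcripts. Of 11 hypoxia genes, Egln3, an oxygen sensor that marks HIF proteins for decay, was the only one, with 1561 and 1595 bp. Of 5 marker lists of cell types, 1 gene was reshaped, the macrophage receptor Csf1r, with 121 and 127 bp with Vector and 809 bp with FTO.

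Eprs1, a glutamyl-prolyl-tRNA synthetase that the study followed up, had 3 Vector peaks and 1 FTO peak with a common length, and was not reshaped.

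Gene families were also read off the symbols, in a choice made after the data were seen. Over all genes with peaks in both lists the share was 18.3%, and 38.8% over those with 1 peak in each list. Of 181 Zfp and Znf genes, which code for zinc finger proteins, 45 were reshaped (24.9%), among them 31 of the 85 with 1 peak in each list. The changes of the 45 were mostly small, with a median log2 ratio of total length of 0.03. The longest peak changed at least 2-fold in 3 of them. Zfp512b was one, and Zfp423, a factor of fat cell precursors, had 1287 bp with Vector and 3215 and 79 bp with FTO. The longest peak of any reshaped gene was in Zfp292, with 8716, 155 and 191 bp with Vector and 8802 bp with FTO. Of 99 solute carriers, 31 were reshaped (31.3%), among them 19 of the 38 with 1 peak in each list. The longest peak was at least 2-fold longer in 4 of the 31 and shorter in 3. Slc2a10, a glucose transporter family member, had 2065 and 902 bp, and Slc38a7, a glutamine transporter, had 199 bp with Vector and 704 and 1676 bp with FTO. Of 41 Ppp genes of protein phosphatase subunits, 16 were reshaped (39.0%), among them 8 of the 14 with 1 peak in each list. The total length was longer in 6 of the 16 and shorter in 10. Of 20 kinesins, whose median gene had 6 Vector peaks, Kif18b alone was reshaped, with 327 and 125 bp and then 526 bp.

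The lists gave another transcript for 42 of the 1158 reshaped genes (3.63%), which had none in common, and 1042 had 1 transcript, the same in both. Genes with a common length all had a common transcript. With the 1042 genes alone, 582 had the longer longest peak with FTO and 460 the shorter.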

How the data were processed

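The 4 libraries were grouped by the genotype in the labels, 1 m6A-IP and 1 input library for Vector and the same for FTO. The peak lists, 1 for either group, are as the authors deposited them. The value used is the deposited peak length in bp, which is not normalized. Peak names carry the prefix MACS. The submitters' processing notes name cutadapt 1.9.3, HISAT2 2.0.4 and build rn6. Settings and threshold of the peak caller are not given in the sources used here, and total counts per library were not used, so depth is unknown. No per-sample columns were left aside.

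Reshaped genes had a gene ID, at least 1 peak in each list and no length in common. Number, longest and total length of peaks were compared per gene. The members and gene lists were chosen with earlier results of these data known. Named genes are those with the largest change of number (6 each way), longest peak (6), total length (6) or single peak (5 each way), ties in number broken by the difference in total length, those nearest to the rule (4 on each side), members of gene lists and, where stated, genes chosen after the values were seen. A few of these genes are not reported here. RefSeq (GRCr8) was used for symbols only.

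To see whether a peak had changed its gene, 11815 common peaks in the same order in both lists served as landmarks, and equal lengths under other genes were sought between the nearest ones. The code that selects genes was checked on simulated lists, which tests no result. Alternatives were tolerances of 10 bp and 10%, minimum lengths of 100 and 200 bp, transcripts as units, transcripts for peaks with no gene ID, genes with 1 and the same transcript in both lists, folds of 1.5 and 4 and lengths scaled by list medians. Python 3.11.15, numpy 2.4.6, pandas 2.3.3, scipy 1.17.1 and matplotlib 3.10.9 were used.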

Additional observations from a re-analysis of the deposited data

How the results depend on the processing

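Of 122 values recomputed under 10 alternatives, 90 stayed within 1.5 times of the reported ones, 30 moved further and 2 differences turned sign. Sign was followed only for longer minus shorter counts of the longest peak and of single peaks. A turn of the larger side among the fold counts is not included in the 2. The at least 2-fold changes of total length, 118 longer and 131 shorter as reported, became 110 and 105 with a tolerance of 10 bp and 102 and 97 with 10%, and 132 each with transcripts as units. With lengths within 10% counted as shared, 593 reshaped genes were left, 68 with more, 384 with as many and 141 with fewer FTO peaks. The longest peak was then longer in 343 and shorter in 250, an excess of 93, single peaks were longer in 219 and shorter in 149, and 30 genes of the pathway lists remained. Keeping only peaks from 200 bp up left 80 genes with more FTO peaks and 144 with fewer, the longest peak was at least 2-fold longer in 68 and shorter in 54, the total in 75 and 72, and single peaks were longer than shorter in 142 more genes, as also with transcripts as units (142). A fold of 1.5 gave 186 and 161 genes for the longest peak and 187 and 215 for the total, and a fold of 4 gave 59 and 40, and 55 and 53. With lengths divided by the list medians, the longest peak was longer in 360 and shorter in 798 (difference -438), and single peaks in 212 and 481 (-269), which turned both directions. This scaling divides FTO lengths by the larger median, so that equal lengths count as shorter with FTO. Of 40 counts for single gene lists under 2 alternatives, 26 stayed within 1.5 times. No paired analysis was possible because only 1 m6A-IP and 1 input library were made for Vector and for FTO. Leaving out a replicate was not possible for the same reason. Depth is unknown and transcript levels were not used, and their part in the results was not tested.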

Other observations

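Few of the reshaped genes' peaks had a peak of equal length at the same place under another gene in the other list. A peak that changed both its gene and its length could not be found this way and is not in these counts. Of their 1650 Vector peaks, 8 had a peak of equal length at the same place in the FTO list under another gene, and of their 1435 FTO peaks, 5 had one in the Vector list, in 13 genes in all. If the peaks were the same and counted for these genes, the 13 would have a common length and would not be reshaped. In 2 cases both genes were reshaped, so that the peak counts from either side. Hsd17b4, a peroxisomal enzyme of fatty acid breakdown, had a Vector peak of 163 bp that stood under Tnfaip8 in the FTO list, and a Vector peak of 280 bp of the kinase gene Map3k6 stood under Wdtc1.

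Peak lengths that are multiples of 3 made up 36.4% of the reshaped genes' Vector peaks (95% Wilson interval 34.1% to 38.7%) and 35.1% of their FTO peaks (32.7% to 37.6%), and 38.2% and 38.3% of the peaks of genes with a common length. The intervals cover counting error only.

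Of 11 ribosomal protein genes with peaks in both groups, taken by symbol after the data were seen and without symbols marked -ps as pseudogenes, 5 were reshaped and 10 had 1 peak in each list, where the share over all such genes was 38.8%. All 5 carry symbols of copies of a ribosomal protein gene (Rps8l1, Rpl30l1, Rps17l2, Rpl27l7 and Rpl5l1). Reads of near-identical copies cannot be told apart with certainty, so the lengths of these 5 genes are uncertain.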
